A study of Mus musculus with 6 samples.

Results

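BMP and TGF-β signalling in liver sinusoidal endothelial cells (LSECs), whose fenestrated layer forms the wall of the sinusoids, was described here through 53 genes. These were the rows of the count files whose symbol is on a list of TGF-β superfamily ligands, receptors, Smads, inhibitors and Id genes. Each symbol was found once among the 23282 rows. RNA came from LSECs of *Txnip*-/- mice (3 libraries, labelled TXNIP-/-) and of WT mice (3 libraries). The knockout is described as a total one on a C57BL/6J background, so it was not confined to endothelial cells, and the controls were C57BL/6J mice. The labels give neither group a treatment. LSECs were taken from the non-parenchymal fraction of collagenase-perfused livers by density gradient and anti-CD146 magnetic beads, and the study's methods describe culture of the selected cells in endothelial growth medium. The age and sex of these mice, whether the genotypes were littermates, and the time in culture are not given in the sources used here. The labels do not say that the libraries of a genotype came from separate mice, so p-values measure the spread between these libraries, which may be technical.

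Ligands of this family bind complexes of type I and type II serine/threonine kinase receptors, which phosphorylate receptor Smads that enter the nucleus with Smad4. BMPs act mainly through Smad1, Smad5 and Smad9, and TGF-β and activins through Smad2 and Smad3. In endothelium, BMP9 and BMP10 signal through the type I receptor ALK1 (*Acvrl1*) with BMPR2 and the co-receptor endoglin (*Eng*), and Id genes and *Smad6* are known targets. LSECs are a main source of BMP2 and BMP6 in the liver, which set hepcidin expression in hepatocytes. Activins are dimers encoded by *Inhba* and *Inhbb*, and follistatin and FSTL3 bind and trap them.

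Counts per library summed to between 9147764 and 10193952, and 11583 rows passed the filter on low counts and were tested. Levels are given as CPM, counts scaled by library total and TMM factor. QuantSeq reads come from the 3′ ends of transcripts, so a level does not grow with transcript length. The knocked-out gene *Txnip* fell to 24.2 ± 5.15 CPM in *Txnip*-/- libraries from 196 ± 13.3 CPM in WT (SD, n = 3 per genotype; log2 fold change -3.02, adjusted p = 6.94e-10, edgeR), and all 6 labels matched the genotype. The *Txnip* row still held 269, 216 and 191 counts in the *Txnip*-/- libraries, and the source of these reads was not tested. WT replicate 3 stood apart from WT replicates 1 and 2. The ribosomal RNA row *Rn45s* took 17.8% of its counts, against 10.03% and 9.68% in the other WT libraries and 16.8% to 18.6% in the *Txnip*-/- libraries. In chi-square per degree of freedom over gene counts, *Rn45s* included, WT replicate 3 was 36.9 and 40.05 from the other WT libraries. From the *Txnip*-/- libraries it was 13.3 to 17.15, so by this measure it was nearer to the other genotype. These distances carry the difference in *Rn45s*, and its part in them was not tested. Without WT replicate 3, 4 of the 53 genes passed the test, namely *Fstl1*, *Fstl3*, *Bmp4* and *Bmpr2*, against 2 with all 6 libraries. Over all genes, 367 were called in that fit, against 179 with all 6 libraries. All 13 LSEC markers were detected, and their sum was 5516 to 7301 CPM in WT and 4771 to 5210 CPM in *Txnip*-/- libraries. *Lyve1* alone was a large part of this sum, with 3482, 3780 and 1520 CPM in WT and 1475, 1642 and 1976 CPM in *Txnip*-/- libraries. Its WT replicate 3 lay within the *Txnip*-/- range (adjusted p = 0.088, edgeR). All 13 markers had lower means in *Txnip*-/- libraries, and 3 were called. *Stab1*, *Stab2* and *F8* fell, and the pan-endothelial genes *Pecam1* and *Cdh5* had log2 fold changes of -0.077 and -0.042 (adjusted p = 0.851 and 0.912, edgeR). The 12 Kupffer cell markers summed to 725 to 757 CPM in WT libraries and 301 to 333 CPM in *Txnip*-/- libraries, and 10 of the 11 tested fell. The 12 stellate cell markers summed to 75.9 to 81.4 CPM in WT and 121 to 140 CPM in *Txnip*-/- libraries. Of the 11 tested, 10 had higher means in *Txnip*-/- libraries and 1 lower, and *Dcn*, *Acta2* and *Tagln* were called higher. *Hgf*, *Des* and *Ecm1* had log2 fold changes of 0.072, 0.039 and -0.30 (adjusted p = 0.973, 0.988 and 0.698, edgeR). *Lrat*, which defines stellate cells, had 19, 8 and 12 counts in *Txnip*-/- and 9, 0 and 0 counts in WT libraries. It overlapped between the genotypes and was not tested. The part of these shifts in the results on BMP and TGF-β genes was not tested. In bulk RNA, fewer cells of a type and less RNA per cell cannot be told apart.

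**Figure D1:**
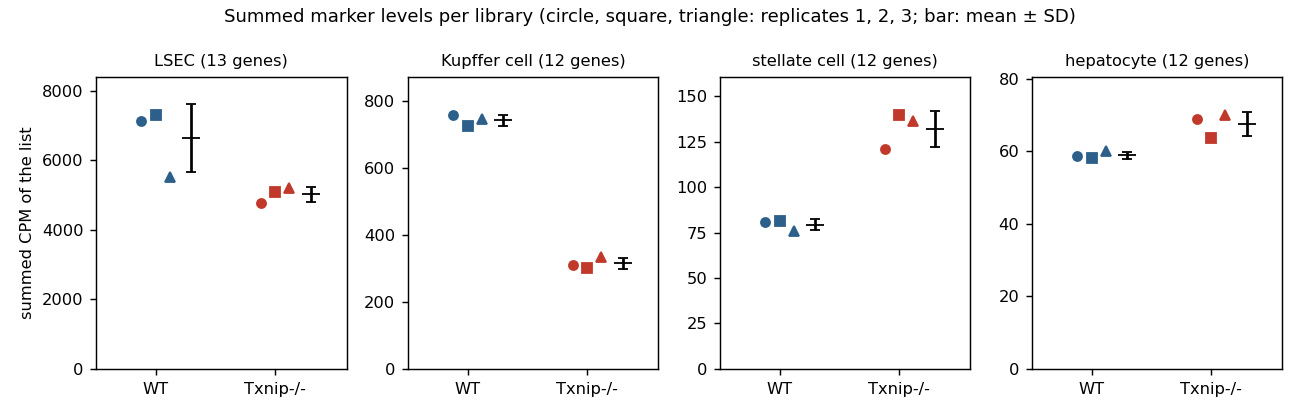
Summed level of 4 lists of cell type markers in each library, in CPM, with mean ± SD per genotype (n = 3). Kupffer cell markers were lower in every *Txnip*-/- library (301 to 333 CPM) than in any WT library (725 to 757 CPM), and stellate cell markers were higher (121 to 140 against 75.9 to 81.4 CPM).

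Of the 53 genes, 44 passed the filter. The other 9 had at most 31 counts in any library. The test was the quasi-likelihood F-test of edgeR, and p-values were adjusted by Benjamini-Hochberg over all 11583 tested genes. At an adjusted p under 0.05, 2 of the 44 genes were called (4.55%), against 1.55% of all tested genes. Both rose, as did 0.57% of all tested genes. The *Fstl3* row, among these 2, shared its counts with another gene, as described below. At an unadjusted p under 0.05 there were 13 (29.5%), with 6 higher and 7 lower, against 11.5% of all tested genes (5.48% higher and 6.05% lower). In 13 genes (29.5%) the 3 *Txnip*-/- libraries did not overlap the 3 WT libraries, 4 above and 9 below, against 17.4% of all tested genes (8.43% above and 8.94% below). These 2 sets of 13 genes had 10 genes in common. The median log2 fold change of the 44 genes was 0.027, beside 0 over all tested genes. The genes were listed with earlier results of these data known, so the shares are descriptions.

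**Figure D2:**
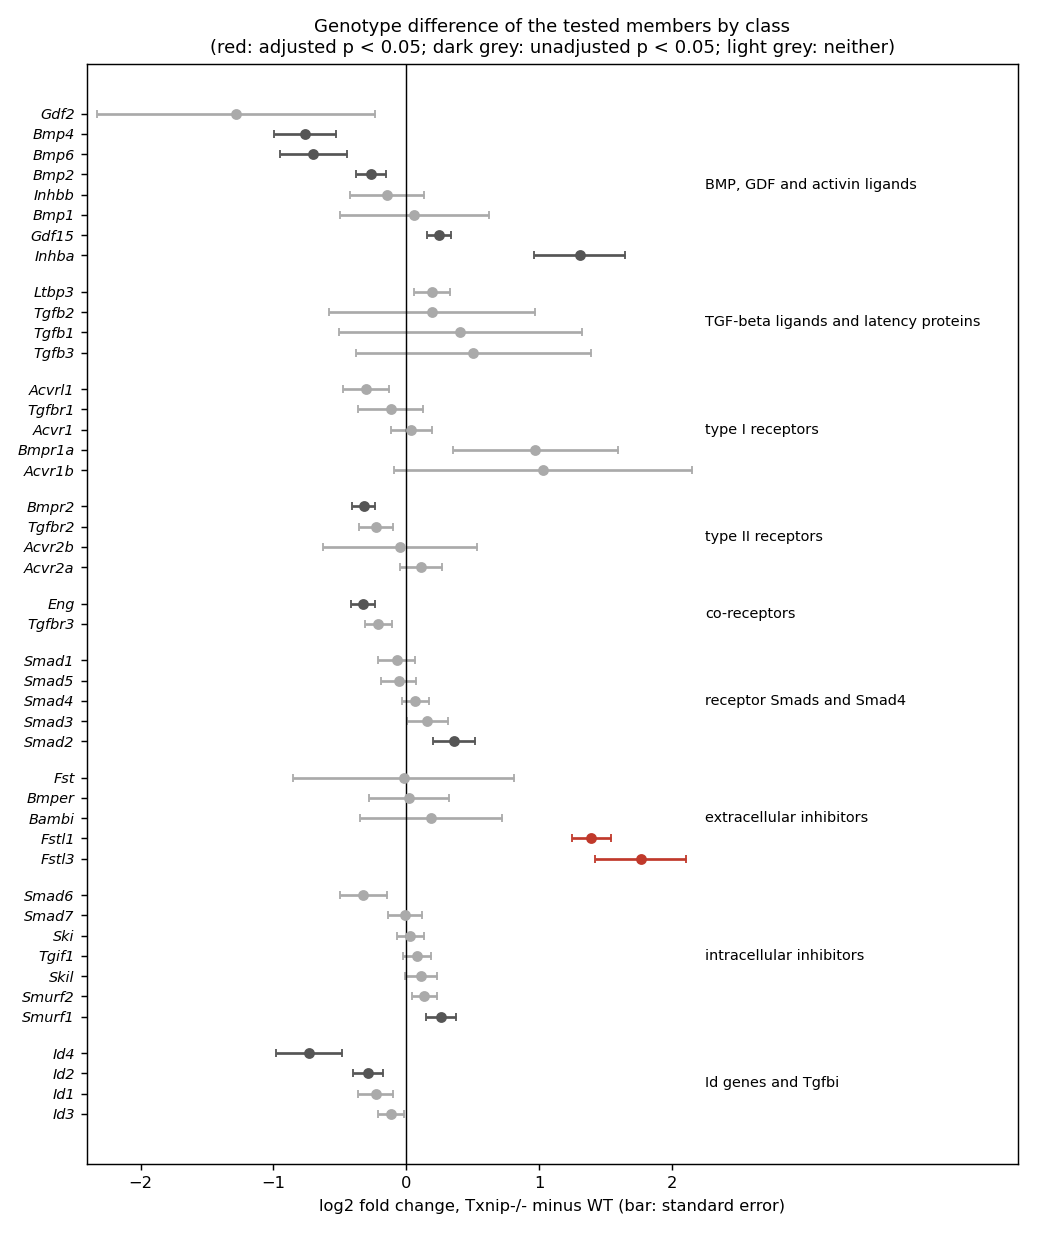
Log2 fold change (*Txnip*-/- minus WT) with its standard error for the 44 tested genes, grouped by class. The 2 genes with an adjusted p under 0.05 are *Fstl1* (1.39) and *Fstl3* (1.76), and all 4 Id genes lie below 0. The *Fstl3* row held the same counts as that of *Prss57*.

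The class with called genes was that of the extracellular inhibitors, in which 2 of 5 tested genes rose and 0 fell. Of all tested genes, 0.57% were called higher. The row of *Fstl3*, among these 2, cannot be given to that gene alone, as described below. *Fstl1* encodes a secreted, follistatin-like glycoprotein known to modulate BMP signalling and made by mesenchymal cells in many tissues. In GENCODE M21 (GRCm38) it spans bases 37776873 to 37836514 of chromosome 16 (plus strand), and its last 500 bases overlap no other annotated gene. Its level was 51.0, 51.0 and 48.0 CPM in *Txnip*-/- replicates 1, 2 and 3, and 19.5, 18.7 and 18.9 CPM in WT replicates 1, 2 and 3. The genotypes were far apart and the libraries within each were close. The log2 fold change was 1.39 with a standard error (SE) of 0.14 and an adjusted p of 1.69e-05 (edgeR), a 2.63-fold rise with a 95% interval of 1.09 to 1.70 on the log2 scale. Over the 6 fits that each lacked 1 library, the log2 fold change lay between 1.38 and 1.42 and the highest adjusted p was 0.0005 (edgeR). Of the 11 stellate cell markers tested above, 10 had higher means in *Txnip*-/- libraries and 3 were called, with a median log2 fold change of 0.88. Among them *Hgf*, *Des* and *Ecm1* had log2 fold changes of 0.072, 0.039 and -0.30. The part of stellate cells in the *Fstl1* level was not tested.

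*Fstl3*, an activin-binding inhibitor, spans bases 79777272 to 79782630 of chromosome 10 (plus strand). Its row held 155, 91 and 97 counts in *Txnip*-/- and 35, 50 and 25 counts in WT replicates 1, 2 and 3. All *Txnip*-/- libraries were above all WT libraries, with replicate 1 the highest. The log2 fold change was 1.76 (SE 0.34, adjusted p = 0.0107, edgeR). The call was lost without *Txnip*-/- replicate 1 (1.44 on the log2 scale, adjusted p = 0.128, edgeR) and without WT replicate 1 (1.72, adjusted p = 0.0601, edgeR). These counts cannot be given to *Fstl3* alone. *Prss57*, a serine protease gene of myeloid cells on the opposite strand, shares 1157 exon bases with *Fstl3* in GENCODE M21, and its row held the same count as *Fstl3* in all 6 libraries. The same reads were thus counted for both genes. Of 48 genes checked, 42 of them members, *Fstl3* was the single one with a row of identical counts. The 5 neutrophil markers had at most 13 counts each in any library, and 0 of them passed the filter. Their sums were 1.45 to 2.34 CPM in *Txnip*-/- and 0.423 to 1.36 CPM in WT libraries. *Txnip*-/- replicate 1, the highest for the *Fstl3* row, had the lowest sum of its genotype (1.45 CPM). It had 0 counts of *S100a8*, against 11 and 13 in replicates 2 and 3, but 6 of *Csf3r*, against 1 and 1. Such counts are too few to rank the libraries. The part of neutrophils in this row was not tested.

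The sequences around the starts of these 2 called genes are shown with those of *Id2* and *Id4*, described below, as the inhibitor and target genes whose genotypes did not overlap. Each runs from 250 bases before to 50 after the RefSeq start, 5′ to 3′ on the gene's strand, from RefSeq on GRCm38.p6. Capitals mark exact matches to GGCGCC, a GC-rich element bound by Smad1 and Smad5, and to CAGAC, a Smad box, searched on both strands without overlap between them.
Fstl1: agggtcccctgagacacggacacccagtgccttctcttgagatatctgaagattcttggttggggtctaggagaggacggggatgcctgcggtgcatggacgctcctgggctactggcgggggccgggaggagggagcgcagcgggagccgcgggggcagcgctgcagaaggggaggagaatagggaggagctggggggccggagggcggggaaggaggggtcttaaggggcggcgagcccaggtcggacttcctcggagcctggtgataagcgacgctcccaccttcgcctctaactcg
Fstl3: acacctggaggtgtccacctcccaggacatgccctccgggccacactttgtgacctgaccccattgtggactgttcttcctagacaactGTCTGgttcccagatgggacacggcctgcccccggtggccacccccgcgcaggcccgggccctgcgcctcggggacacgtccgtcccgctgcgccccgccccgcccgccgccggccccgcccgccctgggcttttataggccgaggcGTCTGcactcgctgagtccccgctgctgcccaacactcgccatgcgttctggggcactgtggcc
Id2: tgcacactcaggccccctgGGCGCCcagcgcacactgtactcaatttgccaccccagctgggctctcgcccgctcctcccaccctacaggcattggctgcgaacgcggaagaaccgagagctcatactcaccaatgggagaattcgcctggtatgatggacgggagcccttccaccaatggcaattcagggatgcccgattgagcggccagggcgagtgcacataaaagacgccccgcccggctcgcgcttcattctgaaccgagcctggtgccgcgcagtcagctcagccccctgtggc
Id4: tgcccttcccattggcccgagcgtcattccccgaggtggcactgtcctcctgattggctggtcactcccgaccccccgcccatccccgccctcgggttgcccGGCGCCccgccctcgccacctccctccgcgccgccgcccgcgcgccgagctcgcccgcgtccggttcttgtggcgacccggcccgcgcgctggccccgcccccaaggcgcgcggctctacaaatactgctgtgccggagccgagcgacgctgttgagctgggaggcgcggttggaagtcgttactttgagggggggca
The windows are chr16:37776805-37777104 (plus strand) for *Fstl1*, chr10:79777024-79777323 (plus) for *Fstl3*, chr12:25096043-25096342 (minus) for *Id2* and chr13:48260866-48261165 (plus) for *Id4*. The *Fstl1* window held neither motif. That of *Fstl3* held CAGAC on the other strand at -161 and -14, counted from the start to the first base of the match. GGCGCC began at -231 in *Id2* and at -148 in *Id4*. RefSeq gave 49 promoters for 40 of the 53 genes. GGCGCC was in 15 of these 49 (30.6%) and in 11.9% of all 32851 promoters, and CAGAC in 26 (53.1%) and in 49.6%. The median GC content was 65.0% for the 49 and 52.7% for all promoters. A match is a description of the sequence and not a bound site.

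The remaining extracellular inhibitors were low. *Bmper*, a BMP-binding modulator of endothelial cells, had 8.84 ± 3.05 CPM in *Txnip*-/- and 8.71 ± 0.34 CPM in WT LSECs. *Bambi*, a pseudoreceptor, and *Fst*, which encodes follistatin, were at mean levels of 1.13 to 4.602 CPM in both genotypes, with adjusted p-values of 0.94 and 0.996 (edgeR). The BMP antagonists *Grem1* and *Chrd* had 9 counts and 1 count over all 6 libraries and were not tested.

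*Inhba*, the activin A subunit, had the largest log2 fold change above 0 among the tested BMP, GDF and activin ligand genes, but it did not pass the test. Its level was 12.2, 25.4 and 22.9 CPM in the *Txnip*-/- libraries and 9.25, 11.5 and 3.60 CPM in the WT libraries. The genotypes did not overlap, although *Txnip*-/- replicate 1 and WT replicate 2 were close. The log2 fold change was 1.304 (SE 0.345, adjusted p = 0.0772, edgeR), and it passed 0.05 without WT replicate 2 (1.64, adjusted p = 0.0488, edgeR), with no filter on low counts (adjusted p = 6.61e-05, edgeR) and in DESeq2 (adjusted p = 0.0382). Without WT replicate 3 it was 0.96 (adjusted p = 0.0811, edgeR). *Inhbb*, the activin B subunit, had 8.97 ± 2.14 CPM in *Txnip*-/- and 9.94 ± 1.47 CPM in WT LSECs. *Inha*, the inhibin α subunit, had 0 counts in all libraries, which allows up to 0.335 CPM in the shallowest library by a floor of 3 counts that covers counting error only. *Gdf15*, a stress-induced cytokine of this family, was the most abundant ligand gene. It had 320, 310 and 293 CPM in the *Txnip*-/- libraries and 231, 266 and 281 CPM in the WT libraries, with no overlap and a difference of 0.25 in log2 terms (SE 0.092, adjusted p = 0.283, edgeR), or 0.31 without WT replicate 3 (adjusted p = 0.0543, edgeR).

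*Bmp2*, *Bmp4* and *Bmp6* had lower mean levels in *Txnip*-/- LSECs without passing the test. *Bmp2* had 76.8, 70.4 and 72.4 CPM in *Txnip*-/- libraries and 78.3, 96.6 and 88.8 CPM in WT libraries. The genotypes did not overlap, with *Txnip*-/- replicate 1 just under WT replicate 1 (log2 fold change -0.26 with SE 0.11, adjusted p = 0.36, edgeR). *Bmp6*, the iron-responsive ligand that drives hepcidin, had 12.1, 10.8 and 7.59 CPM against 16.0, 13.2 and 20.3 CPM in WT libraries. All *Txnip*-/- libraries were below all WT libraries (log2 fold change -0.70 with SE 0.25, adjusted p = 0.254, edgeR). The last exons of *Bmp6* share 224 bases with *Txndc5* on the opposite strand, whose row held 550 to 748 counts against 71 to 192 for *Bmp6*, so reads of the pair cannot be told apart without strand. *Bmp4* had 13.8, 17.3 and 18.4 CPM in *Txnip*-/- libraries and 32.2, 34.7 and 17.2 CPM in WT libraries. WT replicate 3 lay among the *Txnip*-/- libraries, while WT replicates 1 and 2 were well above them. The log2 fold change was -0.76 (SE 0.23, adjusted p = 0.146, edgeR), and -1.02 without WT replicate 3 (adjusted p = 0.00424, edgeR). *Bmp1*, which is a procollagen protease and not a BMP ligand, had 2.50 ± 0.46 and 2.40 ± 0.54 CPM. *Gdf2*, which encodes BMP9, had 11, 2 and 0 counts in *Txnip*-/- and 15, 8 and 12 in WT libraries (log2 fold change -1.28 with SE 1.05, adjusted p = 0.712, edgeR). *Bmp7* had no counts, and *Gdf10* had 23 counts over the *Txnip*-/- and 24 over the WT libraries. *Bmp10* and *Bmp5*, of the wider list described below, had higher means in *Txnip*-/- LSECs at low counts (19, 12 and 3 against 8, 4 and 0 for *Bmp10*, and 7, 33 and 19 against 8, 5 and 8 for *Bmp5*) and were not tested.

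**Figure D3:**
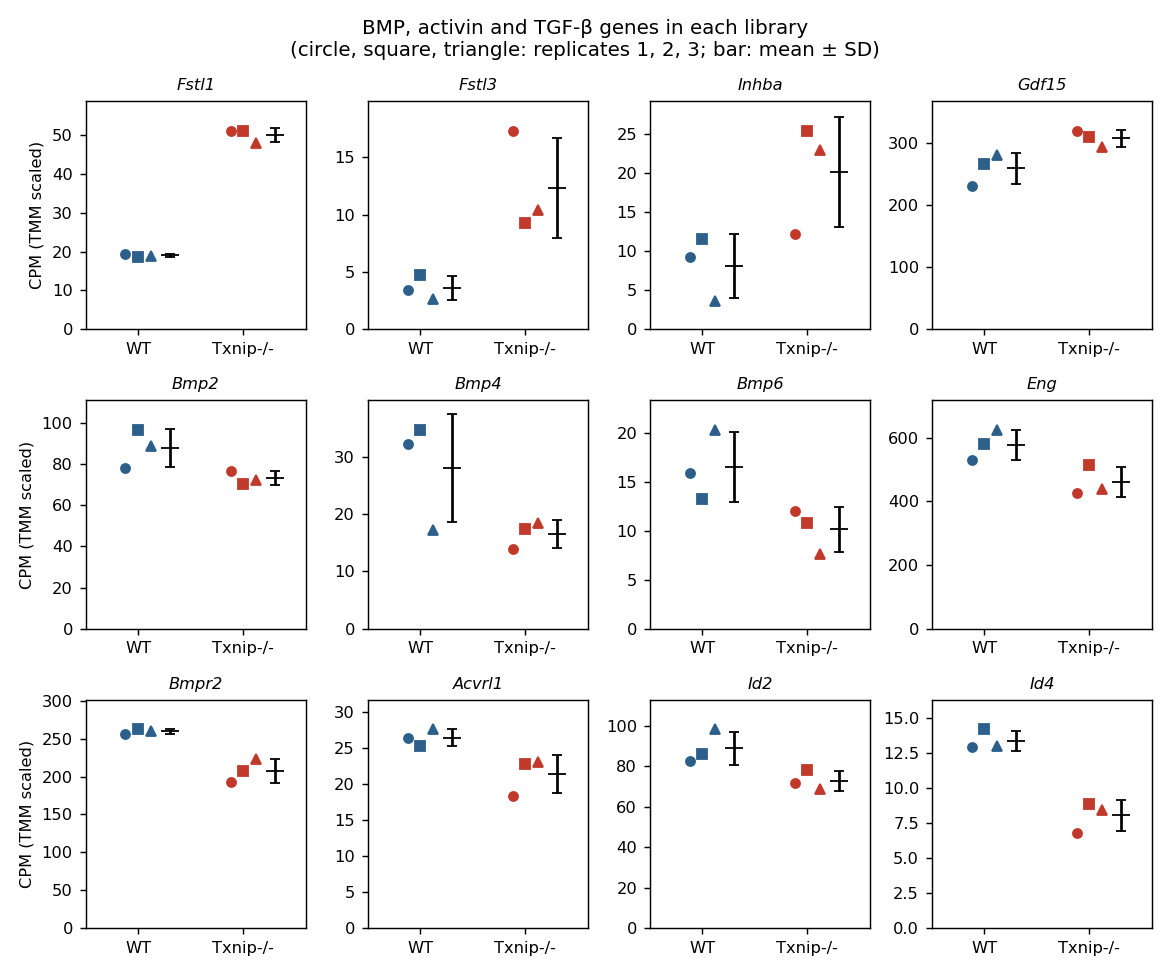
Level of 12 genes in each library, in CPM, with mean ± SD per genotype (n = 3). *Fstl1* was 48.0 to 51.0 CPM in *Txnip*-/- and 18.7 to 19.5 CPM in WT libraries. WT replicate 3 (triangle, 17.2 CPM) lies within the *Txnip*-/- range for *Bmp4*.

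TGF-β ligand transcripts were near the floor. *Tgfb1*, *Tgfb2* and *Tgfb3* had mean levels of 0.746 to 1.90 CPM in both genotypes, where 3 counts equal 0.286 to 0.335 CPM. Their log2 fold changes of 0.41, 0.19 and 0.50 had standard errors of 0.77 to 0.91, so no difference was detectable at this depth. *Ltbp3*, which keeps TGF-β latent in the matrix, had the highest level of this class. It had 61.2, 79.8 and 63.4 CPM in *Txnip*-/- and 68.7, 55.0 and 55.5 CPM in WT libraries, which overlapped (log2 fold change 0.19 with SE 0.14, adjusted p = 0.658, edgeR). *Ltbp1* had 31 counts in WT replicate 3 and at most 1 in the other WT libraries, and *Ltbp2* had 6 counts in 1 library.

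*Acvrl1*, *Bmpr2* and *Eng*, named above for BMP9 and BMP10, had lower mean levels in *Txnip*-/- LSECs, as did *Tgfbr2* and *Tgfbr3*. The type II receptor gene *Acvr2a* had a higher mean. Means were lower in 2 of 5 type I receptor, 3 of 4 type II receptor and 2 of 2 co-receptor genes. In edgeR 0 of the 11 receptor and co-receptor genes passed the test. At an unadjusted p under 0.05 there were 2, both lower, where 6.05% of all tested genes were lower. The same 2, *Eng* and *Bmpr2*, passed in DESeq2 (adjusted p = 0.0269 and 0.0244). *Eng*, with the highest level of all 53 genes, had 426, 515 and 440 CPM in *Txnip*-/- and 528, 579 and 624 CPM in WT libraries. The genotypes did not overlap, but *Txnip*-/- replicate 2 came close to WT replicate 1. The log2 fold change was -0.33 (SE 0.092, adjusted p = 0.104, edgeR). *Bmpr2* had 192, 207 and 224 CPM in *Txnip*-/- and 256, 262 and 261 CPM in WT libraries, and the WT libraries lay within a narrow band above the others. The log2 fold change was -0.32 (SE 0.089, adjusted p = 0.0963, edgeR), and the adjusted p was 0.0485 without WT replicate 3 (edgeR). *Acvrl1* had 18.3, 22.8 and 23.1 CPM against 26.4, 25.2 and 27.6 CPM in WT libraries, again without overlap (log2 fold change -0.30 with SE 0.17, adjusted p = 0.542, edgeR). *Eng* shares 61 exon bases with *Fpgs* on the opposite strand, whose row had 668 to 1036 counts against 3819 to 6083 for *Eng*.

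Among the other receptors, *Tgfbr2* and the co-receptor *Tgfbr3* (betaglycan), which presents TGF-β to it, also had no overlap between the genotypes and lower levels in *Txnip*-/- LSECs. *Tgfbr2* had 48.9 ± 1.58 CPM in *Txnip*-/- and 57.3 ± 5.73 CPM in WT LSECs (adjusted p = 0.519, edgeR), and *Tgfbr3* had 101 ± 7.61 and 117 ± 5.33 CPM (adjusted p = 0.436, edgeR). *Acvr1* (ALK2), the most abundant type I receptor gene, had 67.3, 50.4 and 80.6 CPM in *Txnip*-/- and 69.8, 66.4 and 56.7 CPM in WT libraries. The ranges overlapped, and the log2 fold change of 0.039 (SE 0.15, 95% interval -0.28 to 0.36) turned to -0.13 without *Txnip*-/- replicate 3. *Acvr2a*, *Tgfbr1* and *Acvr2b* were at 28.1 to 30.4, 10.3 to 11.2 and 2.21 to 2.29 CPM in the genotype means. *Bmpr1a* and *Acvr1b* were at 0.484 to 4.23 CPM, with log2 fold changes of 0.97 and 1.03 and standard errors of 0.62 and 1.12.

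For the Smads, 5 of 6 genes were tested and 0 passed in edgeR or DESeq2. At an unadjusted p under 0.05 there was 1, against 11.5% of all tested genes. *Smad4*, the common partner and the most abundant, had 100.5, 94.7 and 102 CPM in *Txnip*-/- and 101, 95.6 and 86.4 CPM in WT libraries. The overlap was nearly full, with a log2 fold change of 0.069 (SE 0.10, 95% interval -0.15 to 0.29). *Smad1* and *Smad5* of the BMP branch had log2 fold changes of -0.072 and -0.057, and *Smad3* of the TGF-β branch 0.16. *Smad2* had 44.2, 40.0 and 43.4 CPM in *Txnip*-/- and 28.6, 40.3 and 30.6 CPM in WT libraries. WT replicate 2 fell within the *Txnip*-/- range and the other WT libraries below it (log2 fold change 0.36 with SE 0.16, adjusted p = 0.377, edgeR). *Smad9* had at most 7 counts in any library.

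All 7 intracellular inhibitors were tested and 0 passed in edgeR or DESeq2. At an unadjusted p under 0.05 there was 1, against 11.5% of all tested genes. *Smurf2*, a ubiquitin ligase for receptors and Smads, had 173, 146 and 161 CPM in *Txnip*-/- and 145, 143 and 148 CPM in WT libraries, with overlap between *Txnip*-/- replicate 2 and the WT libraries (log2 fold change 0.14 with SE 0.096, adjusted p = 0.655, edgeR). Its relative *Smurf1* had 128, 101 and 123 CPM against 105, 90.7 and 97.7 CPM in WT libraries. *Txnip*-/- replicate 2 was below WT replicate 1, and the log2 fold change was 0.26 (SE 0.11, adjusted p = 0.36, edgeR). The inhibitory Smads, which are induced by the pathway as feedback, were at similar levels in both genotypes for *Smad7* (74.3 ± 6.33 and 74.8 ± 11.1 CPM) and varied between WT libraries for *Smad6* (48.3, 70.8 and 41.4 CPM, against 38.5 to 50.2 CPM in *Txnip*-/- libraries). Without WT replicate 3 the log2 fold change of *Smad6* moved from -0.32 to -0.48 (adjusted p = 0.153, edgeR) and that of *Smad7* from -0.0097 to 0.061 (adjusted p = 0.906, edgeR). The corepressor *Ski* was about as abundant as *Smurf2*, with 154 ± 13.3 CPM in *Txnip*-/- and 151 ± 11.8 CPM in WT LSECs. *Ski*, *Skil* and *Tgif1* had log2 fold changes of 0.031 to 0.11.

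The Id genes encode helix-loop-helix proteins that block the DNA binding of their partners and are induced by BMP through Smad1 and Smad5. All 4 were tested and all 4 had lower means in *Txnip*-/- LSECs. None passed the test in edgeR or DESeq2, and edgeR called 0.976% of all tested genes lower. At an unadjusted p under 0.05 there were 2 Id genes, both lower, where 6.05% of all tested genes were lower. *Id3* was the most abundant, with 303, 252 and 259 CPM in *Txnip*-/- and 299, 270 and 314 CPM in WT libraries. These overlapped, since *Txnip*-/- replicate 1 was above WT replicates 1 and 2 (log2 fold change -0.12 with SE 0.096, adjusted p = 0.715, edgeR). *Id2* had 71.6, 78.4 and 68.9 CPM against 82.6, 86.1 and 98.4 CPM in WT libraries, with no overlap (log2 fold change -0.29 with SE 0.11, adjusted p = 0.303, edgeR). *Id4*, the least abundant, had 6.81, 8.87 and 8.45 CPM against 12.9, 14.2 and 13.0 CPM in WT libraries. The genotypes were clearly apart, but on 61 to 149 counts per library (log2 fold change -0.73 with SE 0.25, adjusted p = 0.205, edgeR). *Id1* had 49.97 ± 5.86 and 58.6 ± 6.31 CPM in *Txnip*-/- and WT LSECs (log2 fold change -0.23, adjusted p = 0.547, edgeR). *Tgfbi*, a matrix protein induced by TGF-β, had 0, 5 and 5 counts in *Txnip*-/- and 16, 19 and 0 in WT libraries and was not tested. Kupffer cell markers, lower in the same libraries, had a median log2 fold change of -1.48, and LSEC markers one of -0.29. The part of either cell type in the Id gene levels was not tested.

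A wider list of 104 further ligands, receptors, modulators, regulators and Smad target genes was read in the same fit. Of these, 64 were tested and 6 were called (9.38%, against 1.55% of all tested genes), 4 higher and 2 lower. All 6 were extracellular modulators or targets, and 0 of the 28 tested intracellular regulators were called in edgeR or DESeq2. At an unadjusted p under 0.05 there was 1 such regulator, against 11.5% of all tested genes. *Thbs1*, which encodes a matrix protein that activates latent TGF-β, had 107, 128 and 105 CPM against 56.7, 62.9 and 58.4 CPM in WT libraries. It rose without overlap (log2 fold change 0.93 with SE 0.11, adjusted p = 0.000108, edgeR).

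The contractile genes *Acta2* and *Tagln*, TGF-β targets of mesenchymal cells that are also on the stellate cell list, rose from 5.22 ± 0.91 to 14.5 ± 1.87 CPM and from 24.5 ± 4.09 to 48.3 ± 6.60 CPM. Their log2 fold changes were 1.47 (adjusted p = 0.00677, edgeR) and 0.98 (adjusted p = 0.00313, edgeR). *Acta2* lost its call without WT replicate 1. *Tagln* shares 108 exon bases with *Pcsk7* on the opposite strand, whose row had 188 to 284 counts. *Ctgf*, a target of both TGF-β and YAP, fell from 4989, 5613 and 4797 CPM in WT libraries to 4039, 3684 and 3628 CPM in *Txnip*-/- libraries (log2 fold change -0.44 with SE 0.071, adjusted p = 0.0021, edgeR). *Lrrc32*, which encodes GARP, the cell-surface anchor of latent TGF-β, had 167, 193 and 176 CPM in *Txnip*-/- and 232, 227 and 251 CPM in WT libraries. It fell without overlap (log2 fold change -0.41 with SE 0.092, adjusted p = 0.0326, edgeR). The call of *Lrrc32* was lost when any library other than WT replicate 3 was left out, and with the replicate number as a block. Smad target genes passed the test in both directions, 3 higher and 1 lower of 19 tested. Of all tested genes, 0.57% were called higher and 0.976% lower. *Acta2* and *Tagln*, of the stellate cell list, are among the 3 higher.

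**Figure D4:**
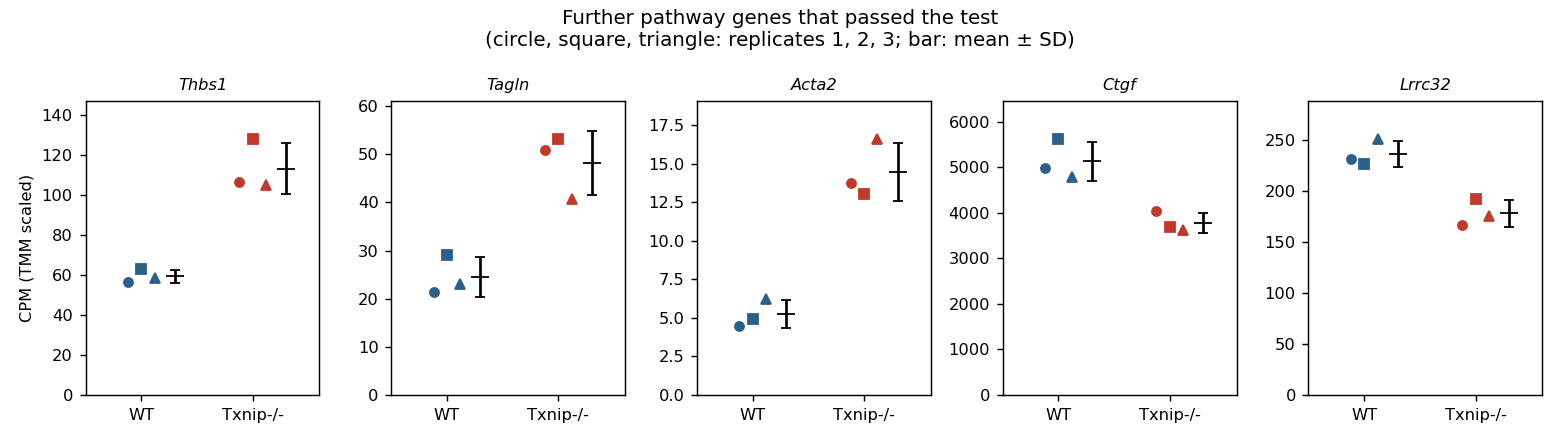
Level of 5 called genes of the wider pathway list in each library, in CPM, with mean ± SD per genotype (n = 3). *Thbs1*, *Tagln* and *Acta2* were higher and *Ctgf* and *Lrrc32* lower in every *Txnip*-/- library than in any WT library.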

How the data were processed

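LSEC RNA had been sequenced as 3 QuantSeq 3′ mRNA libraries of each genotype, and all 6 entered every fit. The authors used Bowtie2 for alignment and Bedtools for counting, keeping reads that align once or several times, and the deposited values are raw counts per gene symbol. The submitters' processing notes name mm10. Versions, the annotation and strand use are not given in the sources used here, and no molecular identifiers are named. Genotype came from the sample titles. Genotypes were compared by glmQLFit and glmQLFTest of edgeR 4.0.16 (R 4.3.3) after filterByExpr and TMM, without covariates, and p-values were adjusted by Benjamini-Hochberg over 11583 tested genes. Standard errors come from the log2 fold change and F. On simulated data for this comparison (11583 genes), edgeR called 53 of 100 genes changed 2-fold, 89 of 100 changed 4-fold, and 11 unchanged genes. WT replicates 1 and 2 differed least (chi-square 3.93 per degree of freedom, against 8.41 to 9.62 between *Txnip*-/- libraries), more than counting noise, and were kept apart.

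The genes and lists were chosen with earlier results of these data known. Values per library are given for genes with an adjusted or unadjusted p under 0.05 and for the most abundant gene of each class, and of the wider list for those with an adjusted p under 0.05. *Acvrl1*, *Smad6* and the genes given by counts (*Gdf2*, *Tgfbi*, *Bmp5*, *Bmp10*) are shown per library outside this rule and were chosen after their values were seen. Positions and exon overlaps are from GENCODE M21 (GRCm38). Alternatives were DESeq2 1.42.0, RLE or no normalization factors, other filters, leaving out *Rn45s* or each library, the replicate block and a fold change above 1.3. A called gene of the wider list is in its counts and is not reported here on its own.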

Additional observations from a re-analysis of the deposited data

How the results depend on the processing

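*Fstl1* kept its call in all 13 alternatives, with log2 fold changes from 1.31 to 1.42, and *Fstl3* kept it in 11 of 13. The number of called members was 2, between 1 and 4 with each library left out, 5 with DESeq2 (3 higher), 4 with no normalization factors (2 higher) and 6 with no filter on low counts (3 higher). The genes gained were *Bmp4*, *Bmpr2*, *Eng* and *Inhba*, and the cause was not tested. *Bmpr2* was gained in 4 of them and *Inhba* and *Eng* in 3 each. Over all genes, 179 were called (66 higher and 113 lower). This number was between 89 and 367 with each library left out, highest without WT replicate 3, and 346 with no filter. With no normalization factors 36 were higher and 150 lower. Same-numbered libraries deviated from their genotype means with correlations of -0.030, 0.017 and -0.047, and 1 of 6 libraries correlated best with its own number, and the numbers were not taken as pairs. With the replicate block 108 genes were called, and the 2 members were called still. Among the genes shown per library by the naming rule, the sign turned for *Acvr1*, to -0.0465 with no normalization factors and within -0.13 to 0.20 with each library left out, and for *Smad4*, to -0.016 with no normalization factors. Depth limits the genes under about 3 CPM, among them *Tgfb1*, *Tgfb2*, *Tgfb3*, *Gdf2*, *Fst* and *Acvr1b*.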
